A study of Mus musculus with 18 samples.

Results

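The 3 passenger strands of the mouse miR-7 hairpins, mmu-miR-7a-1-3p, mmu-miR-7a-2-3p and mmu-miR-7b-3p, were followed through 18 small-RNA libraries of mouse brain. They were taken by name (given without the species prefix from here on), as 3 of the 1841 mature miRNAs listed in the deposited tables. There were 6 groups, each of 3 biological replicates. Hippocampus was taken from mice homozygous for loss of the long noncoding RNA Cyrano (CyrKO) and from wild-type mice (WT). Cerebellum was taken from CyrKO mice, from mice whose circular RNA Cdr1as carries an 18 nt deletion at its site for miR-671 (Cdr1as671), from double mutants with both changes (CyrKOCdr1as671) and from WT mice. All were males of the C57BL/6J strain aged 1 month, and small RNAs of 18 to 32 nt were taken from whole tissue, so fewer cells of a type and less RNA per cell cannot be told apart.

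A miRNA hairpin is cut by Drosha and Dicer into a short duplex. One strand, the guide, is kept in an Argonaute protein and directs repression of target RNAs, while the other, the passenger, is usually discarded and degraded. Mouse miR-7, a miRNA of neurons and endocrine cells, is made from 3 hairpins. Mir7-1 and Mir7-2 give the same guide, miR-7a-5p, so reads of that guide do not tell which locus made it, whereas each of their passengers has its own sequence. Mir7b gives a second guide, miR-7b-5p. Cyrano carries an extensively paired miR-7 site that directs degradation of the miR-7 guide, Cdr1as carries many miR-7 sites, and miR-671 directs slicing of Cdr1as.

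The mature strands are shown because the differences between them are what separates the loci (RefSeq, GRCm38.p6). Capitals mark the seed, bases 2 to 8 from the 5′ end. The passengers are listed first and the guides after them.
miR-7a-1-3p: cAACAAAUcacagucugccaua
miR-7a-2-3p: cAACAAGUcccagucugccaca
miR-7b-3p: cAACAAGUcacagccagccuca
miR-7a-5p: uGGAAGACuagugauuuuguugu
miR-7b-5p: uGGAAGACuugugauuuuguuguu
Both guides share 1 seed and differ by A10U over their shared 23 bases, with miR-7a-5p read first and positions counted from 1 at the 5′ end. Among the passengers miR-7a-2-3p and miR-7b-3p share a seed, and miR-7a-1-3p has another. From miR-7a-1-3p to miR-7a-2-3p the changes are A7G, A10C and U21C, so 19 of 22 bases are identical. From miR-7a-1-3p to miR-7b-3p they are A7G, U14C, U16A, A20U and U21C, and from miR-7a-2-3p to miR-7b-3p they are C10A, U14C, U16A and A20U. None of the 3 passengers contains, or is contained in, a strand of another name among the 1738 mature mouse miRNA entries of RefSeq. The sources used here do not say how reads with a mismatch or a trimmed end were assigned. The level of miR-7a-2-3p in cerebellum, where the near-identical miR-7a-1-3p had far more reads, is therefore uncertain.

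The hairpins are shown to place each passenger opposite its guide, with both mature strands in capitals, the guide first.
Mir7-1: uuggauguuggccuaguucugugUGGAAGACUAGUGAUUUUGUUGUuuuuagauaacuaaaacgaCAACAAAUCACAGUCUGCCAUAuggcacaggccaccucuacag
Mir7-2: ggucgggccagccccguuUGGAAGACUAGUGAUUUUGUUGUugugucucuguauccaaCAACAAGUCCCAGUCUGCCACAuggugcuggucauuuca
Mir7b: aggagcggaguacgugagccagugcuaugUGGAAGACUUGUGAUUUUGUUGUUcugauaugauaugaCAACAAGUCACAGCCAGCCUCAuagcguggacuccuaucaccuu
Mir7-1 lies at chr13:58392779-58392886 on the minus strand, within an intron of Hnrnpk, which encodes an RNA-binding protein and is read from the same strand (GENCODE M21 on GRCm38.p6). Mir7-2 lies at chr7:78888277-78888373 on the plus strand, 7481 bp from the protein-coding gene Aen. The antisense miRNA of that locus, miR-3529, was not analysed here. Mir7b lies at chr17:56242988-56243098 on the plus strand, 183 bp from the lincRNA AC026385.1. Folded with RNAfold, 19 of 23 guide bases pair with the passenger in Mir7-1, 18 of 23 in Mir7-2 and 15 of 24 in Mir7b, a prediction from the sequence alone.

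Libraries held 8591172 to 15305829 miRNA reads. Levels are given as CPM, counts per 1000000 miRNA reads of the library, with SD over 3 libraries. The miRNAs that mark neurons in brain tissue took the most reads of the marker lists, with 280889 to 390648 CPM for the 6 listed together. Cdr1as671 replicates 1 and 2 stood apart with 603 and 783 CPM for the 3 erythroid miRNAs (those of the red cell lineage), against 16205 CPM in replicate 3 and 6326 to 32949 CPM in WT cerebellum. Small-RNA libraries do not measure Cyrano or Cdr1as, and a check of the genotypes on those RNAs was therefore not made. As background to the passengers, the guide miR-7a-5p averaged 25224 CPM in CyrKO hippocampus against 4314 CPM in WT hippocampus. In cerebellum it averaged 20026 CPM in CyrKO, 590 CPM in Cdr1as671 and 37299 CPM in CyrKOCdr1as671, against 496 CPM in WT.

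Which locus supplied the passenger reads depended on the tissue. In hippocampus Mir7-2 supplied a large part beside Mir7-1, while in cerebellum nearly all reads came from Mir7-1. The passenger of Mir7b was a small part of the reads in both tissues. In the plot of passenger levels by library, miR-7a-2-3p moves between tissues across most of the log axis while the other passengers stay in their own bands.

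**Figure D1:**
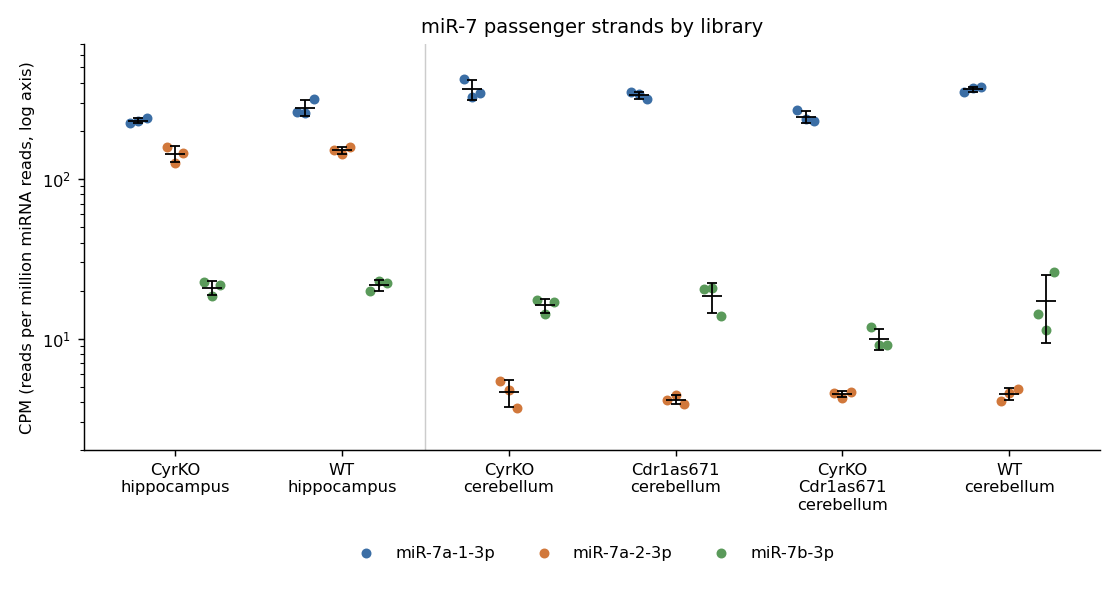
CPM on a log axis of the 3 miR-7 passenger strands in each of 18 libraries, by group. Points are libraries and bars are the mean ± SD (n = 3). miR-7a-2-3p lies between 127 and 159 CPM in the 6 hippocampus libraries and between 3.66 and 5.40 CPM in the 12 cerebellum libraries.

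miR-7a-1-3p, the passenger of the intronic hairpin, was the most abundant of the 3 in every library. In hippocampus it had 224, 231 and 240 CPM in CyrKO and 263, 259 and 317 CPM in WT. In cerebellum it had 420, 324 and 347 CPM in CyrKO, 349, 340 and 316 CPM in Cdr1as671, 271, 237 and 230 CPM in CyrKOCdr1as671 and 351, 369 and 376 CPM in WT. The double mutant was the lowest cerebellum group, and all 3 of its libraries lay below every other cerebellum library. Ordered by mean, the groups ran from CyrKO hippocampus (231 ± 7.95) through CyrKOCdr1as671 cerebellum (246 ± 21.6), WT hippocampus (280 ± 32.2), Cdr1as671 cerebellum (335 ± 17.2) and CyrKO cerebellum (364 ± 50.2) to WT cerebellum (365 ± 12.8). Each neighbour in that order overlapped the next.

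miR-7a-2-3p, the passenger of Mir7-2, was the second most abundant of the 3 in hippocampus and the least abundant in cerebellum. In hippocampus it had 159, 127 and 146 CPM in CyrKO and 152, 143 and 158 CPM in WT. In cerebellum it had 5.40, 4.77 and 3.66 CPM in CyrKO, 4.13, 4.42 and 3.88 CPM in Cdr1as671, 4.55, 4.27 and 4.65 CPM in CyrKOCdr1as671, and 4.08, 4.59 and 4.88 CPM in WT. The hippocampus groups overlapped one another, the cerebellum groups overlapped one another, and no library of one tissue came near the other. The cerebellum values rest on 38 to 73 reads a library. For the 41 reads of CyrKO cerebellum replicate 3, for example, the exact binomial (Clopper-Pearson) 95% interval was 2.63 to 4.97 CPM, which covers counting error only.

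miR-7b-3p, the passenger of Mir7b, had a wide spread among the WT cerebellum replicates. In hippocampus it had 22.6, 18.6 and 21.6 CPM in CyrKO and 19.8, 22.8 and 22.2 CPM in WT. In cerebellum it had 17.4, 14.3 and 16.9 CPM in CyrKO, 20.6, 20.8 and 13.9 CPM in Cdr1as671, 11.8, 9.11 and 9.07 CPM in CyrKOCdr1as671 and 14.3, 11.4 and 26.2 CPM in WT. WT cerebellum replicate 3 was the highest of all 18 libraries, and the double mutant was the lowest group, with only its replicate 1 reaching into the WT range. By mean the order ran from CyrKOCdr1as671 cerebellum (9.98 ± 1.54) through CyrKO cerebellum (16.2 ± 1.65), WT cerebellum (17.3 ± 7.84), Cdr1as671 cerebellum (18.4 ± 3.91) and CyrKO hippocampus (20.9 ± 2.07) to WT hippocampus (21.6 ± 1.62). The lowest 2 groups did not overlap each other, and each later neighbour in the order overlapped the next.

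The share of each locus in all miR-7 passenger reads shows the tissue pattern without any scaling between libraries. miR-7a-1-3p made up 58.5% ± 3.07 in CyrKO hippocampus and 61.7% ± 1.75 in WT hippocampus, against 93.7% to 94.6% as the mean of each of the 4 cerebellum groups. miR-7a-2-3p made up 36.2% ± 2.76 in CyrKO hippocampus and 33.5% ± 1.59 in WT hippocampus, against 1.20% ± 0.20 in CyrKO cerebellum and 1.16% ± 0.05 in WT cerebellum. miR-7b-3p made up 5.27% ± 0.32 in CyrKO hippocampus and 4.80% ± 0.50 in WT hippocampus, against 4.23% ± 0.34 in CyrKO cerebellum and 4.42% ± 1.80 in WT cerebellum. The passengers of the 3 loci summed to 396 ± 17.4 CPM in CyrKO hippocampus and 452 ± 39.0 CPM in WT hippocampus, against 384 ± 52.1 CPM in CyrKO cerebellum and 387 ± 19.0 CPM in WT cerebellum. These sums overlapped between the tissues for CyrKO and did not for WT. Unlike the shares, the sums are in CPM and depend on library totals, and they were not tested. In CPM 54% of 746 miRNAs lay higher in every WT hippocampus library than in any WT cerebellum library. With library totals the median log2 change of all miRNAs between WT tissues was 0.58.

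**Figure D2:**
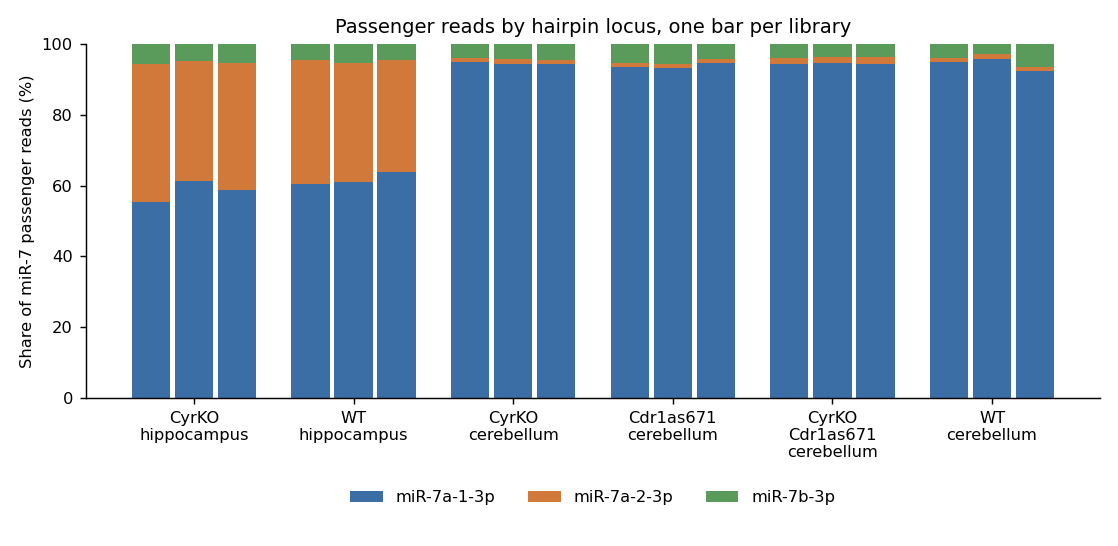
Share of miR-7 passenger reads, in percent, from each hairpin locus, with 1 stacked bar for each of 18 libraries. The miR-7a-2-3p part takes 31.8% to 39.2% of each hippocampus bar and is a thin band in each cerebellum bar.

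Between WT tissues, miR-7a-2-3p rose and miR-7a-1-3p fell in hippocampus. miR-7a-2-3p averaged 151 ± 7.47 CPM in WT hippocampus and 4.52 ± 0.40 CPM in WT cerebellum (SD, n = 3 each), a 33.5-fold ratio of CPM and a 22.8-fold change after TMM scaling (log2 4.51, SE 0.16, adjusted p = 3.90e-13 by edgeR's quasi-likelihood test with Benjamini-Hochberg adjustment). miR-7a-1-3p had a log2 change of −0.93 (SE 0.11, adjusted p = 1.73e-06). miR-7b-3p was at −0.21 (SE 0.21, adjusted p = 0.384, 95% interval −0.67 to 0.24). Of all 746 miRNAs tested, 70% passed in this comparison, so that a passing test sets no miRNA apart, whereas by p miR-7a-2-3p ranked 9 of 746. In CPM, 54% of these miRNAs lay higher in every WT hippocampus library than in any WT cerebellum library, as miR-7a-2-3p did, and 18% lay lower in every one, as miR-7a-1-3p did. The strands of the miR-671 hairpin, of which miR-671-5p directs slicing of Cdr1as, parted between the WT tissues, where miR-671-5p rose by 1.13 on the log2 scale in hippocampus (SE 0.09, adjusted p = 1.43e-08) while the log2 value of miR-671-3p was 0.05 (SE 0.11), with an adjusted p of 0.717.

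Without Cyrano, miR-7a-2-3p again rose and miR-7a-1-3p again fell in hippocampus. The log2 change in CyrKO hippocampus against CyrKO cerebellum was 4.38 (SE 0.15) for miR-7a-2-3p. The passenger of Mir7-1 was at −1.23 (SE 0.11) and miR-7b-3p at −0.20 (SE 0.21, adjusted p = 0.405), with 72.1% of 746 miRNAs past the threshold. There 58.8% lay higher in every CyrKO hippocampus library and 18.5% lay lower in every one. In CPM, before TMM scaling, miR-7b-3p was among the 58.8%, at 20.9 CPM in CyrKO hippocampus and 16.2 CPM in CyrKO cerebellum (1.29-fold). Over both genotypes the change was 4.45 (SE 0.11, adjusted p = 5.07e-16) for miR-7a-2-3p, −1.08 (SE 0.09, adjusted p = 4.40e-09) for miR-7a-1-3p and −0.21 (SE 0.15, adjusted p = 0.199) for miR-7b-3p, where 81% passed.

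The scaling matters for this comparison. With library totals in place of TMM the median log2 change of all miRNAs between WT tissues was 0.58, against 0.03 with TMM, and the share of calls that were higher in hippocampus was 76.1%, against 53.6%. Between CyrKO tissues the median was 0.68 with totals and 0.10 with TMM, and the shares were 76.9% and 53.9%. With totals miR-7a-2-3p was at 5.06 between WT tissues and 4.96 between CyrKO tissues. The fall of miR-7a-1-3p shrank to −0.39 (SE 0.11, adjusted p = 0.00389) between WT tissues, −0.65 (SE 0.11) between CyrKO tissues and −0.52 (SE 0.08) over both, and stayed past the threshold. The sign for miR-7b-3p flipped to 0.33 (SE 0.23, adjusted p = 0.226) between WT tissues and to 0.37 (SE 0.23, adjusted p = 0.160) between CyrKO tissues. Sums of marker miRNAs are given by tissue, and the miRNAs of a list did not always move together. The neuronal sum ran from 280889 to 312066 CPM in hippocampus and from 332640 to 390648 CPM in WT and CyrKO cerebellum. The erythroid sum ran from 2583 to 3574 CPM in hippocampus and from 6326 to 32949 CPM in WT and CyrKO cerebellum. The sum of 8 endocrine and epithelial miRNAs ran from 130 to 326 CPM in hippocampus and from 76.4 to 110 CPM in WT and CyrKO cerebellum, and that of 7 choroid plexus miRNAs from 3586 to 16696 CPM and from 8551 to 10510 CPM. By edgeR with TMM between WT tissues, 4 of the 8 endocrine and epithelial miRNAs passed as higher in hippocampus and 4 as lower. For the 6 neuronal miRNAs these counts were 2 and 3, for the 7 choroid plexus miRNAs 3 and 1, and for the 3 erythroid miRNAs 0 and 3. Between CyrKO tissues they were, in the same order, 4 and 4, 1 and 3, 4 and 1, and 0 and 3. Of all 746 miRNAs 70% passed between WT tissues and 72.1% between CyrKO tissues. No marker was at 0, and the part of these cells in the tissue difference was not tested.

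Ratios between passengers of a library need no scaling, and they separated the tissues in both genotypes. The log2 ratio of miR-7a-2-3p to miR-7a-1-3p, with 0.5 reads added to each count, was −0.69 ± 0.19 in CyrKO hippocampus against −6.30 ± 0.24 in CyrKO cerebellum, and −0.88 ± 0.11 in WT hippocampus against −6.33 ± 0.08 in WT cerebellum. Over both genotypes the difference was 5.53, a 46.1-fold shift of the ratio, and the tissues did not overlap (exact two-sided permutation p = 0.005, the smallest this design allows, adjusted p = 0.0393 over 55 ratio tests). The ratio of miR-7b-3p to miR-7a-2-3p moved the opposite way by −4.62, with the same p-values, and all 6 hippocampus libraries lay below all 6 cerebellum libraries. The ratio of miR-7b-3p to miR-7a-1-3p was 0.91 higher in hippocampus, or 1.88-fold, with adjusted p = 0.0393. That call ended without any 1 of the 3 WT hippocampus libraries, when the adjusted p was 0.0786 and the difference 0.86 to 0.94. Within each genotype the tissues did not overlap in this ratio. With a library left out the exact test has fewer permutations, and its p can rise without any overlap. The lost call therefore cannot tell a weaker difference from a smaller test.

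Other miRNAs made from 2 hairpins with passengers named by locus give a scale for the shift of miR-7a. Of 20 such pairs in the tables, 10 had both passengers at a mean of at least 10 CPM in 1 WT tissue. Their absolute difference in log2 locus ratio between WT hippocampus and WT cerebellum had a median of 0.36 and reached 2.77, against 5.44 for miR-7a. For miR-128, a neuronal miRNA, the second locus gave 16.5 CPM and the first 11.5 CPM in WT hippocampus, against 11.99 and 1.21 CPM in WT cerebellum. For miR-218, known from motor neurons, the second gave 54.4 CPM and the first 11.3 CPM in WT hippocampus, against 20.5 and 0.711 CPM in WT cerebellum. Next came miR-125b with a difference of 0.60 and miR-16 with −0.43. In CyrKO tissues 9 pairs qualified, with a median of 0.28 and a highest value of 2.07, against 5.61 for miR-7a. Of 42 passengers of miRNAs with several loci in the tables, 33 were tested between WT tissues, of which 12 rose and 12 fell in hippocampus, with a median log2 change of 0.01 against 0.03 over all 746 miRNAs. This is a description, and the difference between miR-7a and the other pairs was not tested.

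**Figure D3:**
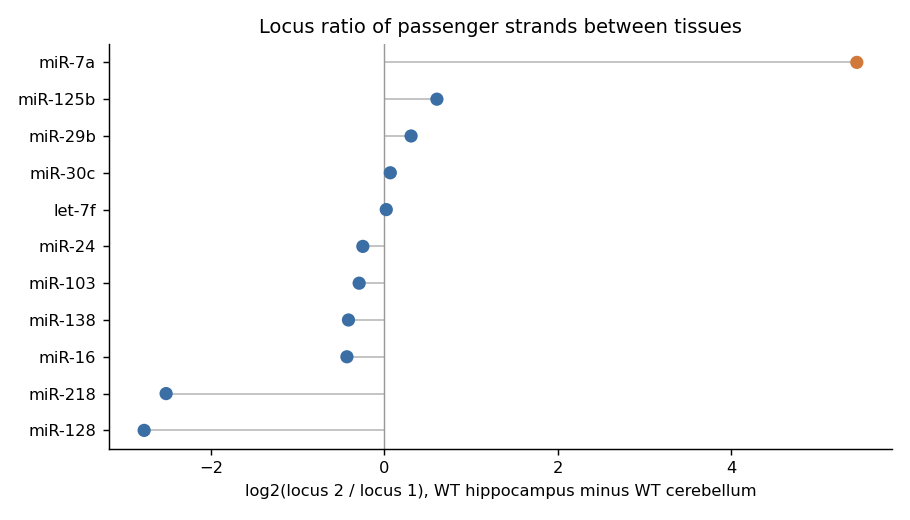
Difference between WT hippocampus and WT cerebellum in the mean log2 ratio of the second to the first locus, for miR-7a (orange) and the 10 other miRNAs with both passengers at 10 CPM or more in 1 WT tissue (blue). Points to the right mean a larger part of the second locus in hippocampus, and miR-7a lies at 5.44 while the others lie between −2.77 and 0.60.

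Loss of Cyrano changed no passenger past the threshold in either tissue by edgeR or DESeq2, while both guides rose. In cerebellum the log2 change was 5.34 for miR-7a-5p and 5.56 for miR-7b-5p, and in hippocampus 2.53 and 2.75. In cerebellum miR-7a-1-3p averaged 364 ± 50.2 CPM in CyrKO and 365 ± 12.8 CPM in WT, miR-7a-2-3p 4.61 ± 0.88 and 4.52 ± 0.40 CPM, and miR-7b-3p 16.2 ± 1.65 and 17.3 ± 7.84 CPM (SD, n = 3 each). For miR-7a-1-3p the 95% interval of the log2 change in edgeR ran from −0.23 to 0.23. The interval ran from −0.41 to 0.49 for miR-7a-2-3p, and that of miR-7b-3p from −0.80 to 0.62. The interval for miR-7b-3p rests on WT replicate 3, without which its log2 change was 0.34 in place of −0.09. Of 668 miRNAs tested, 0.898% passed, all of them higher in CyrKO, and 2.4% had an unadjusted p under 0.05, among them 0 of the 3 passengers. Among those that passed was miR-671-5p, higher by 0.89 in log2 (SE 0.10, adjusted p = 0.000376), while the other strand of its hairpin, miR-671-3p, was at −0.14 (SE 0.12). Of the passengers of other miRNAs with several loci 30 were tested, and 0 passed by edgeR, by DESeq2 or at an unadjusted p under 0.05.

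In hippocampus miR-7a-1-3p averaged 231 ± 7.95 CPM in CyrKO and 280 ± 32.2 CPM in WT, and all 3 CyrKO libraries lay below all 3 WT libraries. Its log2 change was −0.29 (SE 0.10, 95% interval −0.51 to −0.08), with an unadjusted p of 0.0126 and an adjusted p of 0.846 in edgeR over 702 miRNAs, so it did not pass. In the same comparison 4.27% of the miRNAs lay lower in every CyrKO library, 3.85% had an unadjusted p under 0.05 and 0.57% passed the threshold. miR-7a-2-3p averaged 144 ± 16.1 CPM in CyrKO and 151 ± 7.47 CPM in WT (95% interval of the log2 change −0.31 to 0.12), and miR-7b-3p 20.9 ± 2.07 and 21.6 ± 1.62 CPM (−0.32 to 0.19). The effect of Cyrano loss did not differ between tissues past the threshold for any passenger, at −0.29 (SE 0.16) for the passenger of Mir7-1, −0.13 (SE 0.20) for the passenger of Mir7-2 and 0.01 (SE 0.30) for that of Mir7b, with adjusted p from 0.942 to 0.997. For both guides it did, at −2.82 for miR-7a-5p and −2.81 for miR-7b-5p, and 0.402% of 746 miRNAs passed there.

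Over the 3 backgrounds that share no library, namely cerebellum, cerebellum with the Cdr1as671 mutation and hippocampus, Cyrano loss gave a log2 change of −0.22 (SE 0.07, unadjusted p = 0.00446, adjusted p = 0.248 in edgeR) for miR-7a-1-3p. miR-7a-2-3p was at 0.02 (SE 0.08) and miR-7b-3p at −0.31 (SE 0.15, adjusted p = 0.810). Of 755 miRNAs 0.795% passed, and none of the passengers did. For miR-7a-1-3p the outcome depended on CyrKO cerebellum replicate 1, the library with 420 CPM, since without it the change was −0.25 with an adjusted p of 0.0112, and without the low-erythroid Cdr1as671 libraries it was −0.16 with an adjusted p of 0.998. The value for miR-7b-3p without those libraries was −0.13. The log2 ratio of miR-7a-2-3p to miR-7a-1-3p was 0.26 higher without Cyrano (exact permutation p = 0.0143, adjusted p = 0.098), and 0.30 higher (adjusted p = 0.0344) without CyrKO cerebellum replicate 3.

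The Cdr1as671 mutation alone changed no passenger past the threshold. miR-7a-1-3p averaged 335 ± 17.2 CPM in Cdr1as671 and 365 ± 12.8 CPM in WT cerebellum, with a log2 change of −0.16 (SE 0.10, adjusted p = 0.369 in edgeR). Its libraries did not overlap, as was true of 12% of the 665 miRNAs in the same direction, and 2.26% passed the threshold. miR-7a-2-3p was at −0.16 (SE 0.19) and miR-7b-3p at 0.05 (SE 0.36, 95% interval −0.85 to 0.94). With Cdr1as671 replicates 1 and 2, the libraries low in erythroid miRNAs, left out, the value for miR-7a-1-3p was −0.18 (SE 0.11) and that for miR-7b-3p turned to −0.29 (SE 0.61), in fits whose spread for the lone Cdr1as671 library comes from WT.

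In the double mutant the passenger of Mir7-1 fell, whereas that of Mir7-2 did not pass the threshold in either direction. miR-7a-1-3p averaged 246 ± 21.6 CPM in CyrKOCdr1as671 and 365 ± 12.8 CPM in WT cerebellum, and fell by 0.49 on the log2 scale (SE 0.08, adjusted p = 0.00717 by edgeR's test). It ranked 7 of 662 miRNAs by p, of which 2.57% passed and 0.604% passed as lower. miR-7a-2-3p averaged 4.49 ± 0.20 CPM in CyrKOCdr1as671 and 4.52 ± 0.40 CPM in WT (log2 change 0.08, SE 0.17, 95% interval −0.31 to 0.46). miR-7b-3p averaged 9.98 ± 1.54 CPM in CyrKOCdr1as671 and 17.3 ± 7.84 CPM in WT, a log2 change of −0.70 (SE 0.33, adjusted p = 0.302). With CPM, 21.8% of miRNAs lay lower in every double-mutant library than in any WT library, against 4.83% that lay higher. With library totals in place of TMM the share of calls that were higher was 32.3%, against 76.5%. The call for miR-7a-1-3p was lost without CyrKOCdr1as671 replicate 2 or 3 or WT replicate 3, with adjusted p of 0.101, 0.0591 and 0.0729 and log2 changes of −0.47, −0.45 and −0.46. The 6 neuronal miRNAs summed to 322852 to 350620 CPM in CyrKOCdr1as671 and 358720 to 390648 CPM in WT, and the 7 choroid plexus miRNAs to 7394 to 8571 CPM in CyrKOCdr1as671 and 8590 to 10113 CPM in WT. Neither sum overlapped between the groups, and their part in the result was not tested. The sums are in CPM, of which miR-7a-5p and miR-7b-5p took 37299 and 14745 in CyrKOCdr1as671, against 496 and 173 in WT. With TMM, edgeR called 0 of the 6 neuronal and 0 of the 7 choroid plexus miRNAs, with median log2 changes of 0.02 and −0.08. DESeq2 called 1 of the 6 and 0 of the 7. With the replicate number as a block in edgeR, miR-7a-1-3p was at −0.49 (adjusted p = 0.0126) and 35 miRNAs passed, against 17 without it.

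Against CyrKO, miR-7a-1-3p of the double mutant fell by 0.52 on the log2 scale (SE 0.10, adjusted p = 0.0104 in edgeR), at 246 ± 21.6 CPM in CyrKOCdr1as671 and 364 ± 50.2 CPM in CyrKO. There 2.33% of 688 miRNAs passed, and 21.1% lay lower in every double-mutant library. miR-7a-2-3p was at 0.01 (SE 0.18) and miR-7b-3p at −0.64 (SE 0.28, adjusted p = 0.218), with no overlap between the libraries of the groups for miR-7b-3p. The miR-7a-1-3p call was lost without CyrKO replicate 1 or CyrKOCdr1as671 replicate 2 or 3 (adjusted p 0.0501, 0.0853 and 0.0809). The erythroid sum was 5405 to 16004 CPM in CyrKOCdr1as671 and 16566 to 27991 CPM in CyrKO, without overlap, and its part in this result was not tested. Of the 3 erythroid miRNAs edgeR called 0, with a median log2 change of −0.97. Over both Cyrano states the Cdr1as671 mutation gave −0.34 (SE 0.08, adjusted p = 0.0119) for miR-7a-1-3p. The value was −0.08 (SE 0.12) for the passenger of Mir7-2 and −0.29 (SE 0.21, adjusted p = 0.382) for that of Mir7b. In that fit 17.9% of 688 miRNAs passed, and miR-7a-1-3p ranked 51 by p. Without the low-erythroid Cdr1as671 libraries its value was −0.37 with an adjusted p of 0.0168.

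Against Cdr1as671, no passenger of the double mutant passed. miR-7a-1-3p was at −0.34 (SE 0.10, adjusted p = 0.354 in edgeR), miR-7a-2-3p at 0.22 (SE 0.18) and miR-7b-3p at −0.77 (SE 0.28, adjusted p = 0.545), with 0.727% of 688 miRNAs past the threshold. With library totals, which put the median of all miRNAs at −0.12, miR-7a-1-3p was at −0.45 and passed with an adjusted p of 0.0450. Without WT cerebellum replicate 3, which shares the fit, miR-7b-3p was at −0.74 and passed with an adjusted p of 0.0488, and without the low-erythroid Cdr1as671 libraries it was at −0.45 with an adjusted p of 0.999. Both miR-7a-1-3p and miR-7b-3p lay lower in every double-mutant library, as did 14.8% of miRNAs. The effects of the mutations on the passengers did not depart from additivity past the threshold, with an interaction term of −0.35 (SE 0.14, adjusted p = 0.863) for miR-7a-1-3p. The term was 0.17 (SE 0.26, adjusted p = 0.940) for the passenger of Mir7-2 and −0.69 (SE 0.39, adjusted p = 0.863) for that of Mir7b, where 0.145% of 688 passed. Without the low-erythroid libraries the term for miR-7b-3p was −0.37 (SE 0.47).

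**Figure D4:**
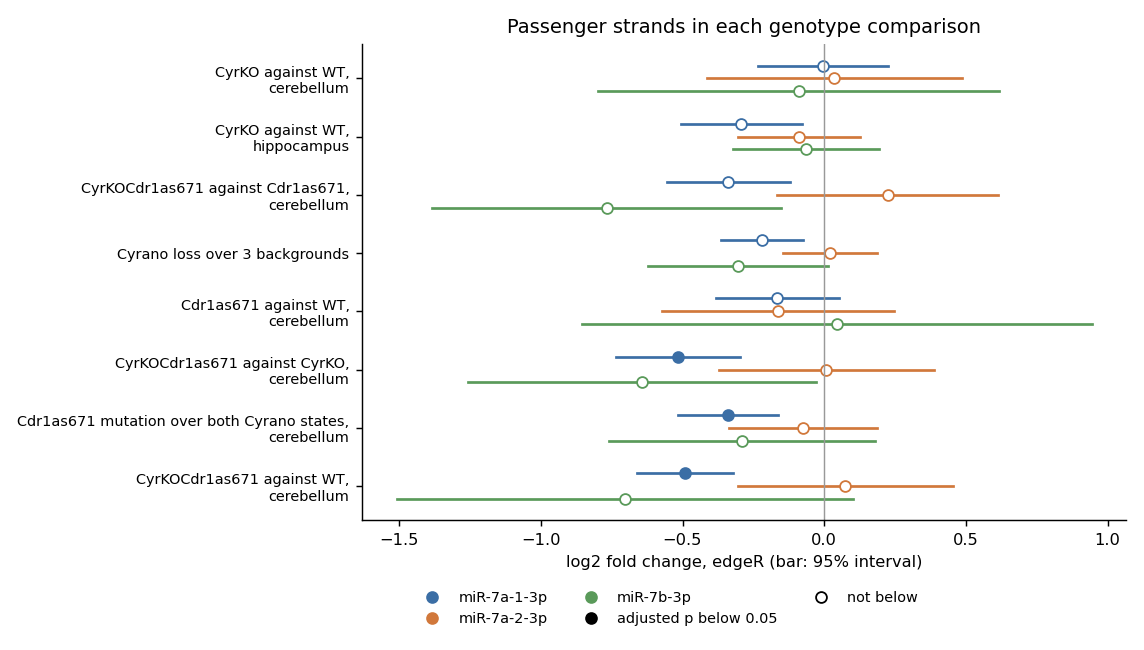
Log2 fold changes of the 3 passengers by edgeR, with 95% intervals, in each genotype comparison. Filled points have an adjusted p below 0.05, which holds for miR-7a-1-3p in CyrKOCdr1as671 against CyrKO, in CyrKOCdr1as671 against WT and for the Cdr1as671 mutation over both Cyrano states, and for no other point.

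The ratio of the 2 miR-7a passengers, which needs no scaling, was higher in the double mutant than in every other cerebellum library. The log2 ratio of miR-7a-2-3p to miR-7a-1-3p was −5.76 ± 0.13 in CyrKOCdr1as671, against −6.30 ± 0.24 in CyrKO, −6.32 ± 0.07 in Cdr1as671 and −6.33 ± 0.08 in WT. All 3 double-mutant libraries lay above all 9 other cerebellum libraries, with 0.0170 to 0.0204 reads of miR-7a-2-3p per read of miR-7a-1-3p against 0.0107 to 0.0148. Each of the 3 differences, 0.54 to 0.57, had an exact permutation p of 0.1, the smallest that 3 against 3 libraries can give, and an adjusted p of 0.145. Over both Cyrano states the difference for the Cdr1as671 mutation was 0.27 (exact permutation p = 0.045, adjusted p = 0.145).

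Set against its passengers, the guide of miR-7a ranged from near parity in WT cerebellum to a large excess without Cyrano. In hippocampus there were 65.6 to 68.2 reads of miR-7a-5p for each read of its 2 passengers together in CyrKO and 9.32 to 11.2 in WT. In cerebellum there were 46.2 to 63.9 in CyrKO, 1.54 to 2.13 in Cdr1as671 and 121 to 177 in CyrKOCdr1as671, against 1.23 to 1.45 in WT. The passengers made up 42.7% of the reads of both strands in WT cerebellum. Only 0.602% of 166 other hairpins with both strands named and at least 100 CPM in sum were more even there. The log2 ratio was 4.84 higher without Cyrano over the 3 backgrounds (exact permutation p = 0.00025, the smallest this design allows, adjusted p = 0.00688), and in each background the CyrKO libraries lay above the others.

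The ratio was 0.91 higher in log2 with the Cdr1as671 mutation over both Cyrano states and 1.60 higher in hippocampus than in cerebellum over both genotypes, each with an exact permutation p of 0.005 and an adjusted p of 0.0393. The difference for the mutation was 0.38 in Cdr1as671 against WT and 1.44 in CyrKOCdr1as671 against CyrKO. The tissue difference was 0.30 between CyrKO tissues and 2.90 between WT tissues. Neither gap was tested. The first of these calls ended without Cdr1as671 replicate 3 or WT cerebellum replicate 1 or 3 (adjusted p 0.0786, 0.118 and 0.0786). The second ended without any 1 of the CyrKO hippocampus libraries (adjusted p 0.0688 to 0.0786). For both calls the groups did not overlap within either Cyrano state. With a library left out the exact test has fewer permutations, so these losses cannot tell a weaker difference from a smaller test. Without both low-erythroid Cdr1as671 libraries the ratio was 1.06 higher with the mutation.

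The ratios of miR-7b were above those of miR-7a in every group. In hippocampus there were 455 to 547 reads of miR-7b-5p per read of miR-7b-3p in CyrKO and 57.7 to 80.9 in WT. In cerebellum there were 429 to 591 in CyrKO, 9.16 to 16.3 in Cdr1as671, 1133 to 1780 in CyrKOCdr1as671 and 6.91 to 16.9 in WT. This log2 ratio was 5.14 higher without Cyrano over the 3 backgrounds (exact permutation p = 0.00025, adjusted p = 0.00688). Over both genotypes the difference between hippocampus and cerebellum was 1.32 (exact permutation p = 0.07, adjusted p = 0.145), and that for the Cdr1as671 mutation over both Cyrano states was 0.82 (p = 0.055, adjusted p = 0.145), so neither passed. The tissue difference was 2.69 between WT tissues, without overlap, and −0.05 between CyrKO tissues. That for the mutation was 0.08 in Cdr1as671 against WT and 1.56 in CyrKOCdr1as671 against CyrKO. The gaps between these values were not tested. In WT cerebellum 27.7% of the other hairpins were more even than miR-7b, at 10.02 guide reads per passenger read.

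**Figure D5:**
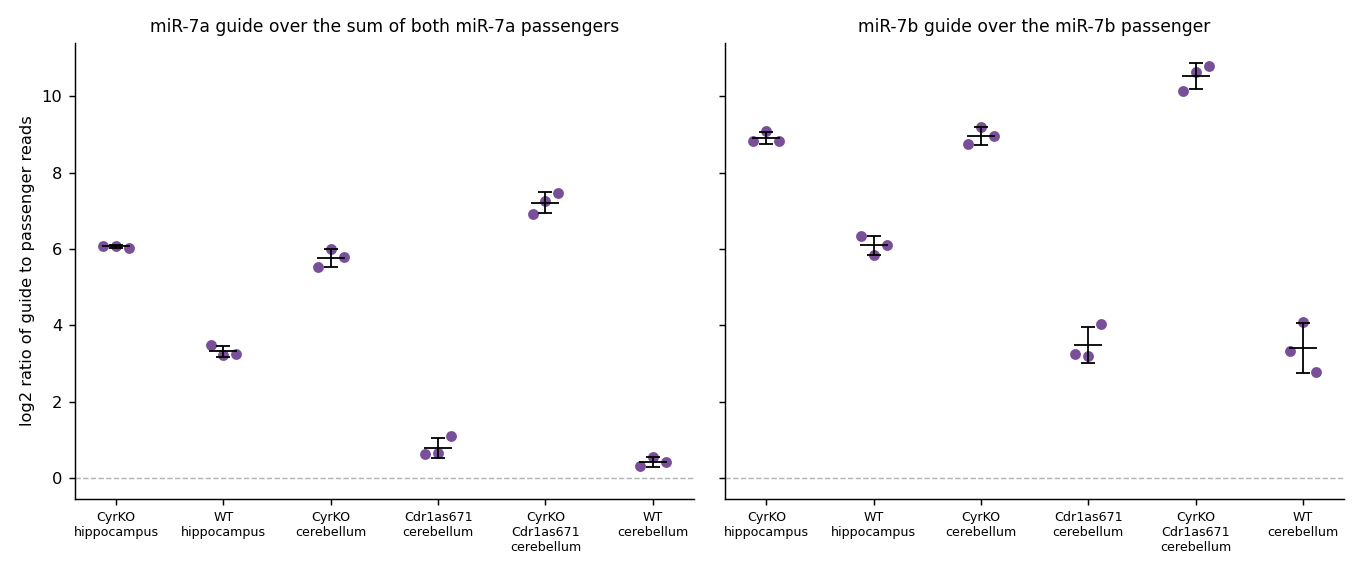
Log2 ratio of guide to passenger reads in each of 18 libraries, for miR-7a (guide over the sum of both passengers, left) and miR-7b (right). Points are libraries and bars are the mean ± SD (n = 3). The dashed line marks equal reads, near which the miR-7a ratio of WT cerebellum lies at 0.42 ± 0.12.

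The miRNAs whose levels ran most like each passenger across the 18 libraries differed from passenger to passenger. These are descriptions over libraries that share tissue and genotype, by Pearson r of log2(CPM + 1) among 436 miRNAs. miR-7a-1-3p ran most like let-7d-5p (r = 0.867), miR-361-5p (0.855) and let-7e-5p (0.826). miR-7a-2-3p ran most like miR-7080-3p (0.997), miR-344c-3p (0.997) and miR-3085-3p (0.996), which had 32.1, 130 and 199 CPM in WT hippocampus and 0.111, 19.99 and 12.2 CPM in WT cerebellum, so the step between tissues fixes these values. miR-7b-3p ran most like miR-150-5p (0.816), miR-299a-5p (0.777) and miR-674-5p (0.771). Among the passengers r was −0.57 for miR-7a-1-3p with miR-7a-2-3p, 0.15 for miR-7a-1-3p with miR-7b-3p and 0.56 between miR-7a-2-3p and miR-7b-3p. The guide miR-7a-5p gave r of −0.61 with the passenger of Mir7-1, 0.27 with that of Mir7-2 and −0.28 with that of Mir7b.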

How the data were processed

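The authors deposited 4 tables, each of a mutant group and the WT libraries of its tissue. Raw counts are whole reads per miRNA, as deposited. The normalised columns, read as signal, are those counts divided by a size factor, per the file headers and the values. The authors' mean level (signal) and test statistic (a score), per the file headers, were not used. Their log2 fold changes, mutant over WT, and their p-values, per the file headers, served as an alternative source of calls. Per the submitters' processing notes, cutadapt and DESeq2 1.10 were used. The sources used here do not state how reads were assigned to miRNAs, or on which build. The WT cerebellum counts were identical in 3 tables and entered once.

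Counts were tested in R 4.3.3 with edgeR 4.0.16 (low counts dropped by filterByExpr at min.count 10 and min.total.count 15, TMM, robust quasi-likelihood F-test) over all miRNAs, with Benjamini-Hochberg adjustment at 0.05. Comparisons with WT used 6 libraries. The double mutant against single mutants, the interaction and the tissue comparisons used fits of 12, and Cyrano loss over 3 backgrounds used 18. Ratios were compared by exact two-sided permutation, within backgrounds where there were several, adjusted over 55 tests. Both procedures were tested on simulated data. Same-numbered libraries were compared by their deviations from group means. These correlated above 0.1 in all 3 pairs for CyrKOCdr1as671 with WT cerebellum (0.463 to 0.659) and CyrKO with WT cerebellum (0.127 to 0.534). For no other 2 groups did all 3 pairs do so, and CyrKO with CyrKOCdr1as671 cerebellum ran from −0.152 to 0.318. The labels give replicate numbers and state no pairing, and whether the numbers pair any libraries was not tested. Hairpins were folded with RNAfold 2.7.2. All 3 passengers passed the low-count filter in each fit.

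The members, lists and tests were chosen with earlier results of these data known. Named were the 3 passengers, the guides, up to 4 other locus pairs with the largest tissue difference, and for each passenger the 3 miRNAs with the highest r among those at a mean of at least 10 CPM. Also named were both miR-671 strands. Strands of miR-3529 (antisense to Mir7-2), let-7a-1-3p, let-7c-2-3p, miR-129-1-3p and miR-129-2-3p were not analysed here. The alternatives were RLE factors, library totals, guides left out, no filter, at least 10 CPM, DESeq2 1.42.0, 18 libraries in 1 fit, the authors' calls, the replicate block, other pseudocounts and each library left out in turn. Leaving out Cdr1as671 replicates 1 and 2 together was chosen after seeing the data.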

Additional observations from a re-analysis of the deposited data

Results flagged for a closer look

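The log2 effect of Cyrano loss differed between tissues for the guides of the miR-7 hairpins by edgeR's quasi-likelihood test, in hippocampus minus cerebellum by −2.82 for miR-7a-5p and −2.81 for miR-7b-5p, while no passenger passed the same test.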

How the results depend on the processing

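The log2 change of miR-7a-2-3p between tissues kept its direction and its call with every normalisation, filter, tool and left-out library that gave a value, and at least 10 CPM as a filter left miR-7a-2-3p without a value in fits of cerebellum alone. Each value that turned its sign was short of the threshold with and without the change in processing. For miR-7a-1-3p in CyrKO against WT cerebellum the log2 change turned to 0.014 with RLE factors, 0.020 with no filter, 0.022 at 10 CPM, 0.011 with DESeq2 and in the authors' deposited table, and 0.023 with 18 libraries. With library totals miR-7a-2-3p of the double mutant was at −0.0079 against WT and −0.038 against CyrKO, and miR-7a-1-3p passed against Cdr1as671 at −0.45. Totals turned miR-7b-3p to 0.33 between WT tissues, 0.37 between CyrKO tissues and 0.35 over both. For miR-7b-3p the difference between tissues in the CyrKO effect turned to −0.0014 without guides and −0.039 at 10 CPM.

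For 13 of 15 pairs of groups not all 3 correlations of same-numbered deviations were above 0.1, and the labels state no pairing for any group. With the replicate block the difference between tissues in the effect of Cyrano loss on miR-7b-3p was −0.042, and the number of miRNAs past the threshold was 42 for Cdr1as671 against WT and 0 for the interaction. The block changed no call for a passenger in edgeR. The block left the ratio differences of 5.53, 0.91, −4.62 and 1.60 between tissues, 0.91 for the Cdr1as671 mutation and 4.84 and 5.14 for Cyrano loss as they were, but its sign-flip test, with a smallest p of 0.0312 for 6 pairs and 0.00391 for 9, gave adjusted p of 0.246 and 0.107. Without Cdr1as671 replicates 1 and 2, an alternative chosen after seeing the data, Cdr1as671 against WT had −0.29 for miR-7b-3p and log2 ratios of −0.0020 (miR-7a-2-3p to miR-7a-1-3p), −0.0100 (miR-7b-3p to miR-7a-1-3p) and −0.0080 (miR-7b-3p to miR-7a-2-3p). The ratio of miR-7b-3p to miR-7a-1-3p was −0.075 for the mutation over both Cyrano states and 0.034 for Cyrano loss, and the miR-7a strand ratio for the mutation was 1.06.

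With each library left out in turn, log2 changes in CyrKO against WT cerebellum ran from −0.10 to 0.070 for miR-7a-1-3p, −0.066 to 0.21 for miR-7a-2-3p and −0.33 to 0.34 for miR-7b-3p, and in hippocampus from −0.12 to 0.010 for miR-7b-3p. For Cdr1as671 against WT miR-7b-3p ran from −0.20 to 0.48. For the double mutant miR-7a-1-3p ran from −0.55 to −0.45 against WT and −0.55 to −0.38 against CyrKO, miR-7a-2-3p from −0.089 to 0.14 against CyrKO, and miR-7b-3p from −0.87 to −0.67 against Cdr1as671. miR-7b-3p ran from −0.38 to 0.19 between WT tissues. The tissue difference of the CyrKO effect ran from −0.33 to 0.0045 for miR-7a-2-3p and −0.43 to 0.20 for miR-7b-3p, and Cyrano loss from −0.25 to −0.18 for miR-7a-1-3p. The log2 ratio of miR-7a-2-3p to miR-7a-1-3p ran from −0.082 to 0.16 in CyrKO and −0.034 to 0.044 in Cdr1as671 against WT cerebellum, and 0.22 to 0.30 for Cyrano loss. That of miR-7b-3p to miR-7a-1-3p ran from −0.25 to 0.33 in CyrKO and −0.39 to 0.19 in the double mutant against WT cerebellum, −0.057 to 0.24 for the Cdr1as671 mutation, 0.78 to 1.07 between tissues and −0.15 to 0.043 for Cyrano loss. That of miR-7b-3p to miR-7a-2-3p ran from −0.29 to 0.27 in CyrKO cerebellum and −0.041 to 0.10 in CyrKO hippocampus. The miR-7a strand ratio ran from 0.83 to 0.98 for the mutation and 1.54 to 1.66 between tissues, and that of miR-7b from −0.22 to 0.42 in Cdr1as671 and −0.17 to 0.064 between CyrKO tissues.

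The number of miRNAs past the threshold, 15 for Cdr1as671 against WT, ran from 0 to 79 across settings and 0 to 112 with a library left out. The 17 for the double mutant against WT ran from 15 to 61 and 6 to 58, the 16 against CyrKO from 13 to 34 and 2 to 26, and the 5 against Cdr1as671 from 3 to 8 and 5 to 58. The 1 of the interaction ran from 0 to 4 and 0 to 19, the 123 for the mutation over both states from 93 to 153 and 64 to 138, and the 604 between tissues from 375 to 686 and 593 to 617. The 522 between WT tissues ran from 358 to 554 and the 538 between CyrKO tissues from 355 to 570 across settings, the 3 of the tissue difference from 1 to 5, the 4 in CyrKO hippocampus from 2 to 4 (4 to 7 with a library left out) and the 6 in CyrKO cerebellum from 4 to 7. Where a group was left with 1 library, that library was taken to vary like the other groups.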
